A study of Homo sapiens with 12 samples.

Results

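Lateral plate and limb mesoderm factors are described here as a set of 9 transcription factor genes, PITX1, TBX2, TBX3, TBX5, TBX20, FOXF1, ISL1, MEIS1 and MEIS2, out of 18665 genes named on the arrays. They were taken by gene symbol, with every probe that the platform annotation gives them, which made 13 probes of 48803. The set was selected on measured values of these same arrays, the higher signal of several of its genes in embryoid bodies than in stem cells, so differences from the stem cells are given as a description with no test. Transcripts were measured on 12 single-colour Illumina bead arrays, 4 per group. The 3 groups were undifferentiated SNUhES3 cells (ESCs), an established human embryonic stem cell line, embryoid bodies (EBs) kept for 1 week, and EBs kept for 2 weeks. All 3 groups were of this single line and carried no introduced gene or drug. The ESCs were grown on STO feeder cells, a mouse line arrested in division, in serum replacement medium with basic FGF. The EBs were colonies lifted with collagenase that floated in bacterial dishes in that medium without basic FGF. The labels do not tell if replicate arrays stand for independent cultures, and p-values therefore measure the spread between these arrays, which may be technical.

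The lateral plate is the outer part of the embryonic mesoderm, which gives rise to the heart, the wall of the gut, the body wall and the limb buds. T-box genes such as TBX2, TBX3, TBX5 and TBX20 encode DNA-binding proteins that pattern the heart and the limb buds, with TBX2 and TBX3 acting mostly as repressors and TBX5 and TBX20 needed for heart formation. PITX1 is a paired-class homeodomain factor of the hindlimb bud and also of the oral ectoderm and pituitary, FOXF1 is a forkhead factor of the splanchnic layer around the gut and vessels, ISL1 is a LIM homeodomain factor of the second heart field and hindlimb field and also of motor and sensory neurons, and MEIS1 and MEIS2 are TALE homeodomain factors that bind DNA together with PBX and HOX proteins.

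Of the 9 genes, 6 had a probe that passed the filter on dim probes, which asked for detection on 4 or more of the 12 arrays, at a p-value below 0.01. They were PITX1, TBX2, TBX3, FOXF1, ISL1 and MEIS1. Each was lowest in ESCs, and on every EB array of either age its level was above that on every ESC array. PITX1 was close to background in ESCs and bright in EBs. ISL1 alone of the 6 was detected in ESCs, where it was dim. TBX5, TBX20 and MEIS2 were not detected on any array at that threshold. Because 5 of the 6 passed the filter only through EB arrays, a higher EB level was fixed by the filter for them. Among the 10562 genes tested, 25.4% had 1-week arrays all above the ESC arrays and 27.5% had 2-week arrays all above them. In this mixture of cells, fewer cells of a type and less RNA per cell cannot be told apart.

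Mean probe intensity lay between 816.5 and 1006 in ESCs, between 902 and 1092 in 1-week EBs and between 718 and 1009 in 2-week EBs, with the second 2-week array the dimmest. Between 14045 and 15905 probes were detected per array, and with 4 arrays per group their number limits the precision. Pluripotency genes were measured as a check of the labels. All 7 that were named and detected stayed bright, and their mean level lay between 13.6 and 13.7 in ESCs, between 13.4 and 13.5 in 1-week EBs and between 13.1 and 13.2 in 2-week EBs on the log2 scale. None of the 7 was called lower in EBs, where a call needs a 2-fold difference. Smaller falls from ESCs were seen at 2 weeks, with arrays that did not overlap. They were -0.67 for POU5F1, -0.82 for NANOG, -0.50 for DPPA4, -0.53 for DNMT3B and -0.69 for ZFP42. SOX2 and LIN28A overlapped with ESCs. Arrays 1 and 2 and arrays 3 and 4 of a group resembled each other, with correlations across genes, which are not independent replicates, of 0.997 to 0.998 in ESCs, against 0.987 for the other pairs. In 1-week EBs the corresponding correlations were 0.998 and 0.992, and in 2-week EBs they were 0.992 to 0.998 and 0.99 to 0.995.

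The sequence just upstream of a gene's start is shown for 4 of the factors, because their transcripts behaved differently: PITX1 had the widest gap between EBs and ESCs, ISL1 varied most among 2-week arrays, MEIS1 had overlapping levels in the EB groups, and TBX5 was not detected. The windows are the 250 bases before the annotated start in RefSeq on GRCh38.p14, at chr5:135034229-135034478 on the minus strand for PITX1, chr5:51383198-51383447 on the plus strand for ISL1, chr2:66434875-66435124 on the plus strand for MEIS1 and chr12:114408013-114408262 on the minus strand for TBX5. They are upstream of the transcript and hold no exon of it. Capitals mark matches to 8 short motifs searched on both strands, whose letters are given after the sequences.
PITX1: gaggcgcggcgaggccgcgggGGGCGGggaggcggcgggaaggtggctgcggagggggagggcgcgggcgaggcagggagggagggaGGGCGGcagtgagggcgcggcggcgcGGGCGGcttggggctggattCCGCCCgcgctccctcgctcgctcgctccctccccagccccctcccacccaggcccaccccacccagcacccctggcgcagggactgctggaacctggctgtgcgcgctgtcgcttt
ISL1: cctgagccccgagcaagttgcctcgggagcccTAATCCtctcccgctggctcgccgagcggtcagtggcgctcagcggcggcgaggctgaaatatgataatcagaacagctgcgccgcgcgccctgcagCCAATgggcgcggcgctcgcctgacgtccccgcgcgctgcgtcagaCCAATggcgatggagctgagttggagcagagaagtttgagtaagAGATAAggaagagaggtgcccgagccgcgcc
MEIS1: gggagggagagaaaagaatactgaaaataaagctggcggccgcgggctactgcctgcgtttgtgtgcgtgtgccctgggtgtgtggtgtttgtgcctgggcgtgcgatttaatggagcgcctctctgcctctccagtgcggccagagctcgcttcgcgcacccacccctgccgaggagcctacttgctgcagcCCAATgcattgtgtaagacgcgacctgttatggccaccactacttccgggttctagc
TBX5: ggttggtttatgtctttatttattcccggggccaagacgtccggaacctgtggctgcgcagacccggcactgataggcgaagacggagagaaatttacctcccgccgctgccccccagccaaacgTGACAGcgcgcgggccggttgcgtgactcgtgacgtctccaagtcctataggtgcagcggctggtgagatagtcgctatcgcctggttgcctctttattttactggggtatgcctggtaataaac

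The motifs were AGGTGTGA for T-box factors, TGACAG for MEIS factors, TAATCC for PITX factors, TGTTTAC for forkhead factors, AGATAA for GATA factors, TATAAA for the TATA box, CCAAT for the CCAAT box and GGGCGG for the GC box bound by SP1. The PITX1 window held 4 GC boxes and 29 CpG dinucleotides, with 79.2% G or C. The ISL1 window held 2 CCAAT boxes, 1 match to the PITX letters and 1 to the GATA letters. The MEIS1 window held 1 CCAAT box, and the TBX5 window held 1 match to the MEIS letters. Entries were also found for TBX20, at chr7:35254101-35254350 on the minus strand with 1 GC box, and for MEIS2, at chr15:37099107-37099356 on the minus strand with 2 overlapping GC boxes. TBX2, TBX3 and FOXF1 were not matched.

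Of all 27305 promoter windows of this length, 42.3% held the GC box letters, 33.0% the CCAAT letters, 13.1% the MEIS letters, 11.1% the TATA letters, 9.37% the GATA letters, 5.67% the PITX letters, 2.98% the forkhead letters and 0.787% the T-box letters. None of the 6 matched windows held the T-box, forkhead or TATA letters. A match describes letters in a window and does not show binding. The 6 windows held between 16 and 31 CpG dinucleotides with a median of 26.5, against a median of 21 over the 8643 windows of tested genes and 11 over all windows. The windows of detected and undetected factors overlapped in this count, with 29, 27 and 16 in PITX1, ISL1 and MEIS1, and 20, 31 and 26 in TBX5, TBX20 and MEIS2.

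**Figure D1:**
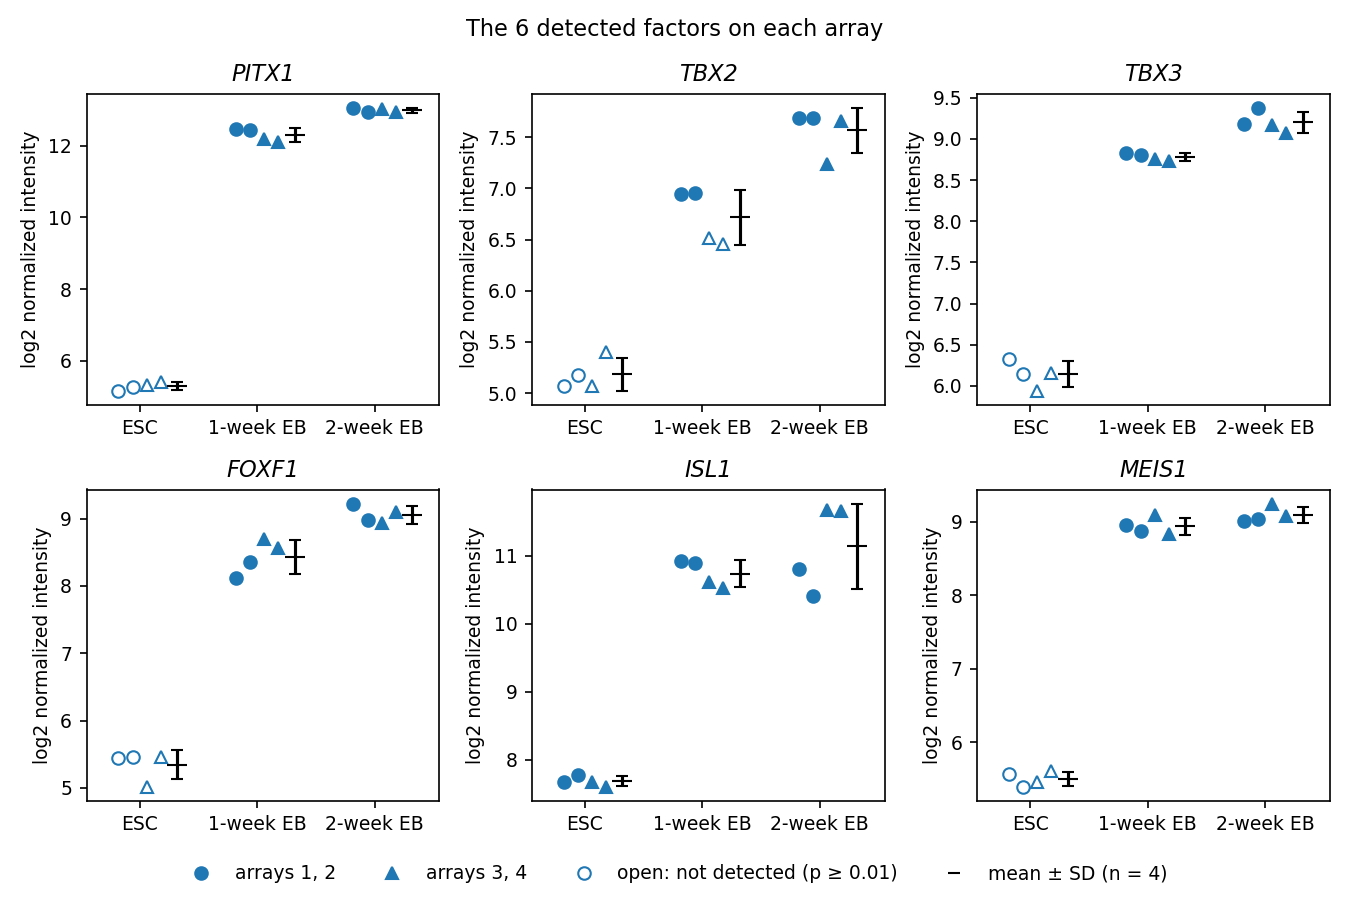
Log2 normalized intensity (vertical axis) of PITX1, TBX2, TBX3, FOXF1, ISL1 and MEIS1 on each of the 12 arrays, by group (ESCs, 1-week EBs, 2-week EBs). Circles are arrays 1 and 2 and triangles are arrays 3 and 4, open symbols were not detected at a p-value under 0.01, and bars give the mean and SD of 4 arrays. All 6 lie higher on every EB array than on every ESC array, and the 2-week ISL1 arrays split into a lower and a higher pair.

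PITX1 was read by probe ILMN_1674386. Its normalized log2 level was 5.17, 5.27, 5.32 and 5.41 on the ESC arrays, 12.48, 12.43, 12.18 and 12.10 on the 1-week arrays and 13.06, 12.93, 13.02 and 12.95 on the 2-week arrays. The 3 groups did not overlap, and the spread within any group was small beside the gap between ESCs and EBs. The step between the EB ages was narrower, with means of 12.30 ± 0.19 and 12.99 ± 0.06 (SD, n = 4 each). The deposited intensity lay between 94.2 and 105.01 in ESCs, between 4426 and 7069 in 1-week EBs and between 6036 and 9382 in 2-week EBs. Since no ESC array detected the probe, its fold is a bound, the EB mean against the higher of the probe's own ESC value and the dimmest detected probe of each ESC array. PITX1 was at least 37.0-fold higher in 1-week EBs and at least 59.8-fold higher in 2-week EBs than in ESCs.

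Markers of the oral ectoderm and pituitary, where PITX1 is also active, were set beside it. Of the 10 listed genes 7 were named on the array and 1 was detected, HESX1, a homeobox gene of the early pituitary and forebrain. POU1F1, LHX3, LHX4, POMC, KRT5 and KRT14 did not pass the filter. HESX1 averaged 11.15 ± 0.05 in 2-week EBs and 9.84 ± 0.11 in 1-week EBs (SD, n = 4 each), a rise of 1.31 (adjusted p = 9.48e-08, limma), and it was not called against ESCs at either age. Mesenchyme, endoderm and cardiomyocyte markers each had a higher summed normalized intensity on every EB array than on every ESC array, as PITX1 did. All 9 mesenchyme markers were detected, and 8 were called higher than in ESCs at each age. No ESC array detected 4 of the 9, which were tested only because EBs expressed them. The mesenchyme sum lay between 5271 and 7178 in ESCs, between 49804 and 66840 in 1-week EBs and between 98484 and 114546 in 2-week EBs. The cardiomyocyte sum lay between 313 and 374, between 7182 and 8317 and between 8058 and 12136 in the same order. The part of any of these cells in the PITX1 level was not tested.

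TBX2 lay nearest the detection threshold of the 6 factors. Probe ILMN_1792256 stood at 5.07, 5.18, 5.07 and 5.41 on the ESC arrays, 6.94, 6.95, 6.52 and 6.46 on the 1-week arrays and 7.69, 7.69, 7.24 and 7.66 on the 2-week arrays. The groups did not overlap, but in 1-week EBs the probe passed the detection threshold only on arrays 1 and 2, where its detection p-value was 0.00922, and just missed it on arrays 3 and 4, where that value was 0.0184 and 0.0145. No fold against ESCs can be given at 1 week, because the 1-week mean lay below the bound. In 2-week EBs, where all 4 arrays detected it, TBX2 was at least 1.39-fold higher than in ESCs. The deposited intensity lay between 85.5 and 99.3 in ESCs, between 155 and 235 in 1-week EBs and between 231 and 313 in 2-week EBs.

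TBX3, the close relative of TBX2, had a detected and an undetected probe. The detected probe, ILMN_1713449, stood at 6.32, 6.15, 5.94 and 6.15 on the ESC arrays, 8.83, 8.81, 8.76 and 8.73 on the 1-week arrays and 9.18, 9.38, 9.17 and 9.07 on the 2-week arrays. The groups did not overlap and the 1-week arrays lay close together. Against ESCs, which did not detect it, it was at least 3.23-fold higher in 1-week EBs and at least 4.33-fold higher in 2-week EBs. The other probe, ILMN_1701393, averaged 5.15 in ESCs, 5.70 in EBs of 1 week and 5.73 in EBs of 2 weeks, and passed the threshold on no array. Both probes had their lowest mean in ESCs, but only the detected one was higher at 2 weeks than at 1 week by more than its spread.

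TBX5 and TBX20, the T-box factors of heart formation, stayed at background. The 2 TBX5 probes averaged 5.05 and 5.01 in ESCs, 4.95 and 4.99 in EBs of 1 week and 5.00 and 5.05 in EBs of 2 weeks. The TBX20 probe averaged 5.02 in ESCs, 5.11 in EBs of 1 week and 5.09 in EBs of 2 weeks. Their detection p-values were never below 0.187, so any level lay below what these probes could measure, and the absence of transcript cannot be stated. Among the cardiomyocyte markers, 4 of 10 named genes were detected and 3 were called higher than in ESCs at both ages, MYL4, MYL7 and SLN. No ESC array detected these 3, so they were tested only because EBs expressed them. TNNI1, MYH6, MYH7, MYL3, RYR2 and PLN did not pass the filter.

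FOXF1, read by probe ILMN_1680973, stood at 5.45, 5.46, 5.02 and 5.46 on the ESC arrays, 8.11, 8.36, 8.69 and 8.56 on the 1-week arrays and 9.22, 8.97, 8.93 and 9.10 on the 2-week arrays. The groups did not overlap. It was undetected in ESCs and was at least 2.54-fold higher in 1-week EBs and at least 3.91-fold higher in 2-week EBs. Its deposited intensity lay between 82.4 and 116 in ESCs, between 430 and 540 in 1-week EBs and between 488 and 755 in 2-week EBs.

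ISL1, read by probe ILMN_1763390, was measured in all 3 groups. It stood at 7.68, 7.79, 7.67 and 7.61 on the ESC arrays, 10.92, 10.90, 10.61 and 10.52 on the 1-week arrays and 10.81, 10.41, 11.67 and 11.66 on the 2-week arrays. Every EB array was above every ESC array, but the EB groups overlapped: arrays 1 and 2 of the 2-week group lay among or just below the 1-week arrays, and arrays 3 and 4 lay above them. ISL1 was 8.30-fold higher in 1-week EBs than in ESCs and 10.9-fold higher in 2-week EBs, on the normalized scale. Its deposited intensity lay between 222 and 278 in ESCs, between 1558 and 2537 in 1-week EBs and between 1145 and 3367 in 2-week EBs, the last a wider range than at 1 week.

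The 2-week arrays with more ISL1 also had more of the neuron markers. Of the motor and sensory neuron list 6 were detected, POU4F1, STMN2, DCX, ELAVL3, ELAVL4 and TUBB3. Their mean level was 9.68, 9.56, 10.44 and 10.38 on 2-week arrays 1 to 4. That of the 4 detected cardiomyocyte markers was 10.03, 10.03, 10.39 and 10.42. Both lists were thus higher on arrays 3 and 4, as ISL1 was. On the 1-week arrays, where ISL1 was higher on arrays 1 and 2, the neuron markers ran the other way, at 9.10, 9.11, 9.46 and 9.37. Of the 14 neuron markers, 13 were named on the array, and MNX1, LHX3, CHAT, SLC18A3, PHOX2A, NEUROG1 and NEUROG2 did not pass the filter. The mean thus rests on the 6 detected genes and does not measure motor neurons. The summed intensity of these 6 lay between 6349 and 8246 in ESCs, between 6661 and 8635 in 1-week EBs and between 9340 and 16184 in 2-week EBs. The part of neurons or heart muscle in the ISL1 level was not tested.

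**Figure D2:**
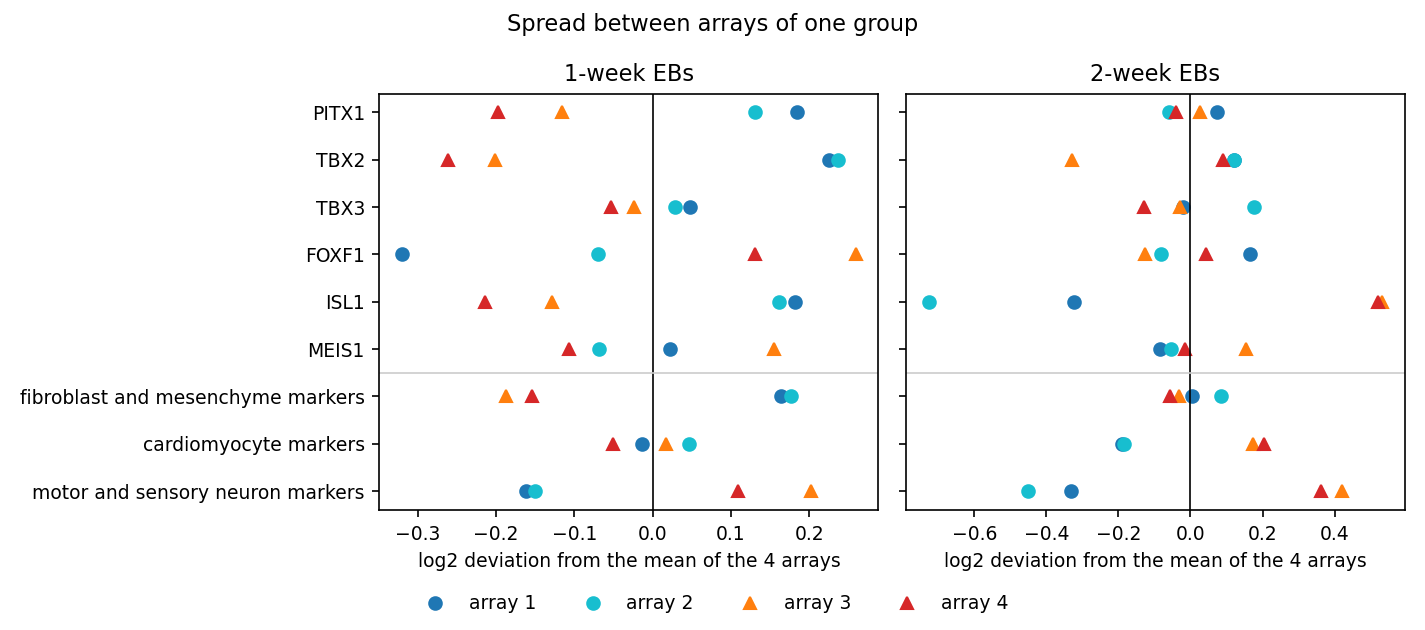
Deviation of each array from the mean of the 4 arrays of its group (horizontal axis, log2), for the 6 detected factors and for the mean of the detected fibroblast, cardiomyocyte and neuron markers, in 1-week EBs (left) and 2-week EBs (right). Circles are arrays 1 and 2 and triangles are arrays 3 and 4. In 1-week EBs PITX1, TBX2 and ISL1 are higher on arrays 1 and 2 and FOXF1 is lower there, and in 2-week EBs ISL1 and the neuron markers are higher on arrays 3 and 4.

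MEIS1, read by probe ILMN_1705685, stood at 5.57, 5.40, 5.45 and 5.60 on the ESC arrays, 8.96, 8.87, 9.10 and 8.83 on the 1-week arrays and 9.01, 9.04, 9.25 and 9.08 on the 2-week arrays. Both EB groups were clear of the ESCs and overlapped each other. It was undetected in ESCs and at least 3.61-fold higher in 1-week EBs and at least 4.02-fold higher in 2-week EBs.

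MEIS2 had 3 probes and lay just outside the detection threshold. Probe ILMN_2398077 averaged 5.12 ± 0.04 in ESCs, 5.78 ± 0.14 in EBs of 1 week and 6.50 ± 0.06 in EBs of 2 weeks (SD, n = 4 each). Its detection p-values were 0.0119, 0.0158, 0.0119 and 0.0119 on the 2-week arrays, and between 0.0316 and 0.0606 on the 1-week arrays. The other probes, ILMN_1664416 and ILMN_1792995, averaged 5.10 and 5.07 in ESCs, 5.14 and 5.28 in EBs of 1 week and 5.14 and 5.24 in EBs of 2 weeks. Only the first of the 3 probes moved away from its ESC level by more than the spread of the arrays, and the platform annotation assigns the 3 to different transcripts.

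**Figure D3:**
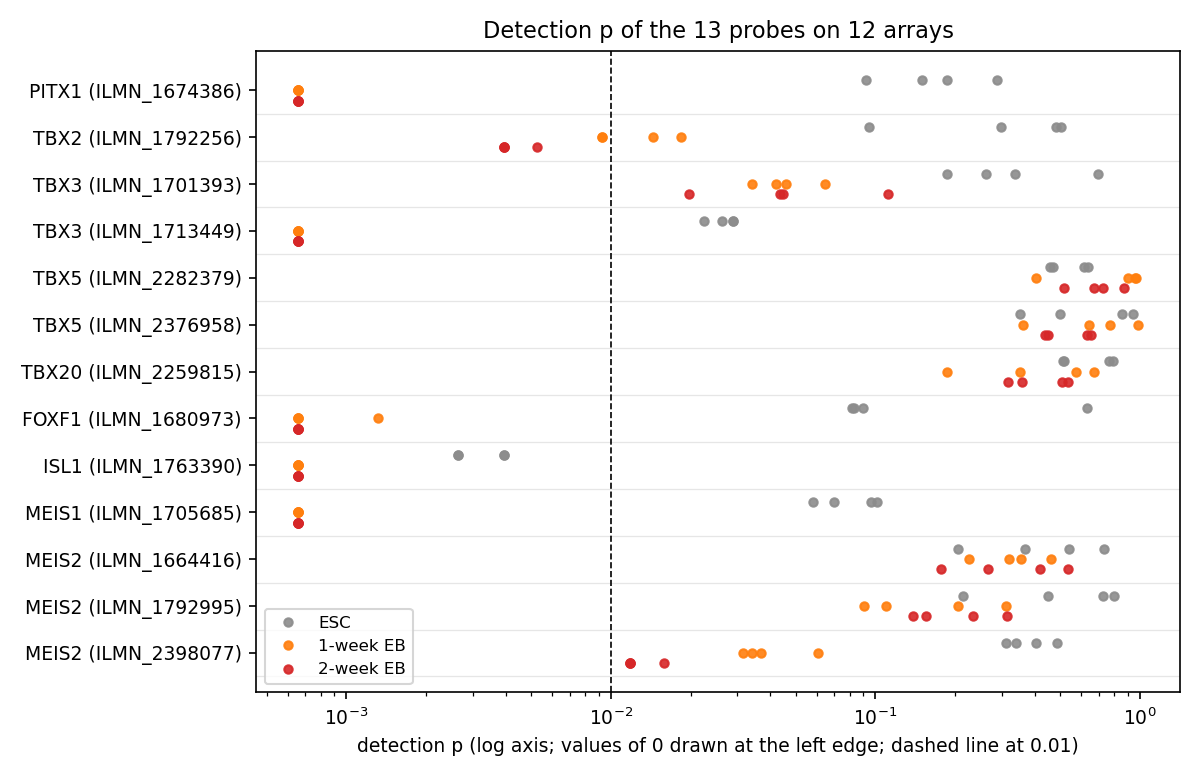
Detection p-value (horizontal log axis, values of 0 drawn at the left edge) of the 13 probes on each of the 12 arrays, for ESCs, 1-week EBs and 2-week EBs. The dashed line is the threshold of 0.01: 6 probes lie left of it on EB arrays, 1 MEIS2 probe lies just right of it in 2-week EBs, and the TBX5 and TBX20 probes lie far right in all groups.

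The second week was compared directly, 2-week against 1-week EBs, with limma across the 10562 genes and Benjamini-Hochberg adjustment over all of them. This comparison leaves out the ESC difference by which the set was proposed, but it uses the same EB arrays, so it is not independent support. PITX1 was higher by 0.69 on the log2 scale (SE 0.091, adjusted p = 0.00011), TBX2 by 0.85 (SE 0.138, adjusted p = 0.000562), TBX3 by 0.42 (SE 0.087, adjusted p = 0.00292) and FOXF1 by 0.62 (SE 0.131, adjusted p = 0.00335). In each of these 4 the lowest 2-week array was above the highest 1-week array. TBX2, detected on 2 of the 1-week arrays and on no ESC array, met the filter only with its 2-week arrays. Its higher 2-week level was thus partly set by the filter, and its p-value is a description. ISL1 differed by 0.40 (95% interval -0.10 to 0.89, adjusted p = 0.225) and MEIS1 by 0.15 (95% interval -0.02 to 0.33, adjusted p = 0.188), and neither passed the test.

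None of the 6 was called in this comparison, where a call also needs a 2-fold difference, a log2 value of 1. Of all tested genes, 0.881% were called higher and 0.502% lower. Without the fold minimum, 4 of the 6 factors were higher at an adjusted p under 0.05, as they were at an unadjusted p under 0.05, against 12.4% of all genes. TBX2, whose higher 2-week level was partly set by the filter, is counted among them, and also in the next count and the median. The 4 whose arrays did not overlap compare with 14.8% of all genes. The median of the 6 differences was 0.52, against -0.01 over all genes. The middle 95% of single genes lay between -0.64 and 0.67, and PITX1 and TBX2 lay above that range. When the arrays 1 and 2 and the arrays 3 and 4 of each group were averaged, TBX3 and FOXF1 no longer passed (adjusted p = 0.0967 and 0.0685). In the series matrix, the authors' own processed values, TBX2 and TBX3 did not pass (adjusted p = 0.25 and 0.871, limma). There the second 2-week array stood apart from the other 3 for both. It stood at 7.16 against 7.79 to 8.25 for TBX2 and 8.27 against 9.11 to 9.36 for TBX3. The mismatch was not limited to these genes. Across all probes, the series matrix values of that array correlated at 0.935 with the values used here, against 0.994 on every other array. The test of ISL1 also turned on that array: without it the difference was 0.64 (adjusted p = 0.0235, limma), past an adjusted p of 0.05 but under the 2-fold minimum.

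**Figure D4:**
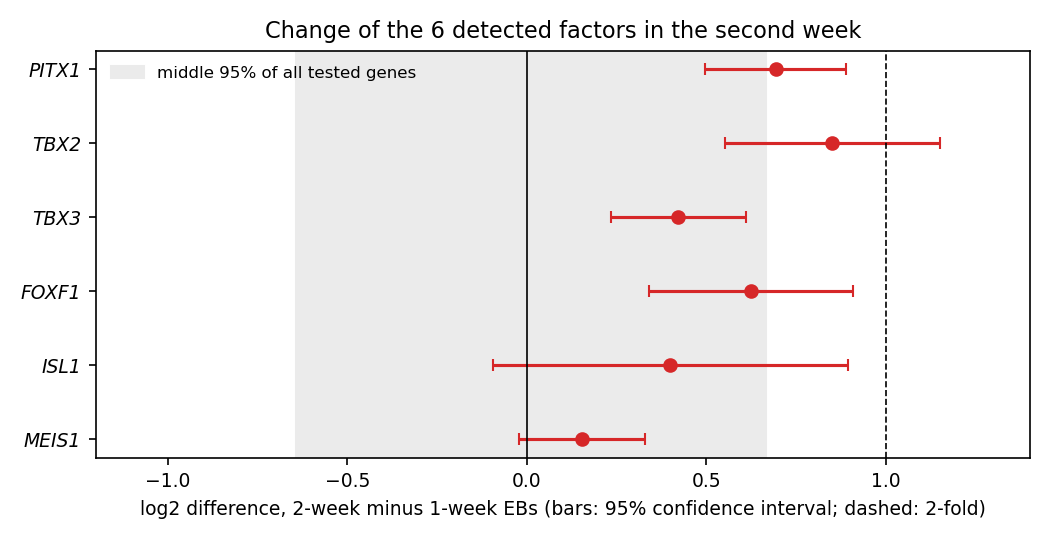
Log2 difference of the 6 detected factors, 2-week minus 1-week EBs (horizontal axis), with 95% confidence intervals from limma. The grey band is the middle 95% of all tested genes and the dashed line a 2-fold difference. PITX1 and TBX2 lie above the band, and the intervals of ISL1 and MEIS1 include 0. TBX2 met the filter only with its 2-week arrays.

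Genes related to these factors by family or by place in the embryo were taken from 8 lists, which hold none of the 9 and of which 55 genes were tested. A called gene has an adjusted p under 0.05 and at least a 2-fold difference. In 1-week EBs against ESCs 26 of the 55 were called higher and 0 lower, while 6.09% of all tested genes were called higher and 3.07% lower. In 2-week EBs against ESCs 26 were called higher and 4 lower, with 8.27% and 6.02% of all genes. Between 2-week and 1-week EBs 4 were called, 3 higher and 1 lower, with 0.881% and 0.502% of all genes. As with the factors, a listed gene undetected in ESCs was tested only because EBs expressed it, so these counts describe the lists and were not tested, and such a gene is named with a bound on its fold and no p-value.

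Among the other T-box genes 5 of 13 were detected, 2 were called higher at each age and 1 was called lower at 2 weeks. EOMES and TBXT, the T-box factors of the primitive streak, were undetected in ESCs and at least 6.29-fold and at least 1.89-fold higher in 2-week EBs. TBX1, a factor of the pharyngeal arches named here after its value was seen, was undetected in 2-week EBs and at least 1.70-fold lower there than in ESCs. That call ended without background correction and in the series matrix, where the difference was as small as -0.66. TBX4, the hindlimb T-box gene that PITX1 is known to act upon in the mouse, did not pass the filter, nor did TBX6, TBX15 or TBX18. The median difference of the 5 was -0.03 at 1 week and -0.06 at 2 weeks, beside 0.01 and -0.02 over all genes.

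Of the TALE partners of the MEIS proteins, 6 of 8 named genes were detected and 1 was called higher at each age. PKNOX2 averaged 8.29 ± 0.17 in 2-week EBs and 6.50 ± 0.31 in ESCs (SD, n = 4 each), where it was undetected, and was at least 2.30-fold higher. Its call at 1 week was lost without background correction and in the series matrix, where the difference was as small as 0.83. TGIF1, a repressor in TGF-beta signalling, fell by 1.03 in 2-week EBs (adjusted p = 1.45e-08, limma), which was just under a 2-fold difference without the second 2-week array, and its other 3 probes differed by -1.02, -0.90 and -0.01. The PBX genes, whose proteins pair with MEIS1, were not called: PBX2 differed by 0.07 and PBX3 by 0.37 in 2-week EBs from ESCs. At 1 week PBX2 differed by -0.18 and PBX3 by 0.70, each with arrays that did not overlap those of ESCs. The median of the 6 was 0.05 at 1 week and 0.16 at 2 weeks.

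Of the paired and LIM relatives of PITX1 and ISL1, 7 of 12 named genes were detected, 4 were called higher at each age and none lower. LHX2, a LIM homeodomain factor of the limb bud and also of the eye field and forebrain, was 19.1-fold higher in 2-week EBs than in ESCs and 6.40-fold higher in 2-week than in 1-week EBs (log2 4.25 and 2.68, SE 0.115 each, adjusted p = 1.03e-12 and 9.69e-09, limma). PRRX1, a paired homeobox gene of limb mesenchyme, was at least 3.76-fold higher in 2-week EBs than in ESCs, where it was undetected. LHX1 and LMO2, named after their values were seen, were the other 2 called at each age. Neither was called without background correction or in the series matrix, where the differences at 2 weeks were as small as 0.31 for LHX1 and 0.35 for LMO2. The medians were 1.10 at 1 week and 1.27 at 2 weeks. Forebrain and retina markers moved with LHX2 in the second week. Of the 5 detected, 4 were called higher in 2-week than in 1-week EBs: PAX6, SIX3, RAX and LHX2 itself. PAX6 and SIX3, detected on 2 of the 1-week arrays and on no ESC array, met the filter only with their 2-week arrays. Their higher 2-week level was thus partly set by the filter. Mean log2 levels of the 5 were 7.67 to 7.78 in ESCs, 8.33 to 8.70 in 1-week EBs and 10.54 to 10.85 in 2-week EBs. The summed intensity of the 5 was 10657 to 11971, 7663 to 8728 and 13633 to 18065 in the same order. OTX2, the brightest, weighed most in this sum, and averaged 13.38, 12.83 and 13.36. The part of forebrain or retina cells in the LHX2 difference was not tested. PITX3, ISL2, LHX9 and LMX1B did not pass the filter.

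Of the forkhead relatives of FOXF1, 3 of 8 named genes were detected, and FOXF2, FOXC2, FOXD2 and FOXL1 were not. FOXD1, a forkhead gene of kidney stroma and limb mesenchyme, was called higher at 1 week, at 8.26 ± 0.03 in 1-week EBs and 6.89 ± 0.395 in ESCs (adjusted p = 1.42e-05, limma), and fell by 1.02 in 2-week against 1-week EBs (adjusted p = 0.000632, limma). The second of these was under 2-fold without the second or the third 2-week array. The medians of the 3 were -0.23 and -0.11 at 1 and 2 weeks.

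Of 17 named genes that work beside these factors in the lateral plate and heart, 12 were detected, 9 were called higher at each age, and the median difference was 1.99 at 1 week and 2.05 at 2 weeks. HAND1, a basic helix-loop-helix factor of lateral plate and extra-embryonic mesoderm, was 118-fold higher in 1-week EBs and 126-fold higher in 2-week EBs than in ESCs (log2 6.88 and 6.98, SE 0.075 each, adjusted p = 2.9e-16 and 1.62e-16, limma). HOPX, a homeodomain-only regulator of heart muscle, was at least 6.08-fold higher in 2-week EBs than in ESCs, where it was undetected. HEY2, a Notch target of the ventricle named here after its value was seen, fell by 1.01 in 2-week EBs (adjusted p = 2.84e-09, limma), just past the 2-fold minimum and just under it without the second ESC array or the second 2-week array. None of the 12 was called in the second week.

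Among limb bud genes 14 of 22 named were detected, 6 were called higher at 1 week and 7 at 2 weeks, and none lower. RSPO2, a secreted enhancer of WNT signalling, was at least 12.1-fold higher in 2-week EBs than in ESCs, where it was undetected, and MSX1, a homeobox target of BMP signals, was 22.7-fold higher (adjusted p = 3.81e-12, limma). GREM1, a secreted BMP antagonist of the limb bud, was 3.11-fold higher in 2-week than in 1-week EBs (log2 1.64, SE 0.134, adjusted p = 2.81e-06, limma). SHH, FGF10, WNT7A, EN1, DLX6, HOXD9, HOXD10 and HOXD11, which mark outgrowing and patterned limb buds, did not pass the filter, while HOXD13 did and was not called. The medians were 0.76 at 1 week and 1.30 at 2 weeks.

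Of the hedgehog pathway genes, 6 of 13 named were detected, 1 was called higher at each age and none lower, with medians of 0.10 and 0.12. GAS1, a hedgehog coreceptor, was 3.66-fold higher in 2-week EBs than in ESCs (log2 1.87, SE 0.177, adjusted p = 6.18e-07, limma), a call that was lost in the series matrix (adjusted p = 0.695). The direct target GLI1 differed by -0.23 and PTCH1 by 0.19 in 2-week EBs. At 1 week they differed by -0.12 and 0.55, and only the PTCH1 arrays did not overlap those of ESCs. Of the paraxial and intermediate mesoderm genes, which mark the tissues next to the lateral plate, 4 of 15 named were detected and 3 were called higher at each age. MEOX1, a somite homeobox gene, was at least 1.07-fold higher in 2-week EBs and MESP1, a factor of early cardiac and paraxial mesoderm, at least 3.20-fold, and both were undetected in ESCs. TCF15, a somite factor named after its value was seen, was undetected in 2-week EBs and at least 1.41-fold lower there than in ESCs. That call too ended without background correction and in the series matrix, with a difference as small as -0.67. The medians of the 4 were 1.51 at 1 week and 1.71 at 2 weeks. PAX1, PAX2, PAX3, PAX8, PAX9, MSGN1 and MEOX2 did not pass the filter.

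**Figure D5:**
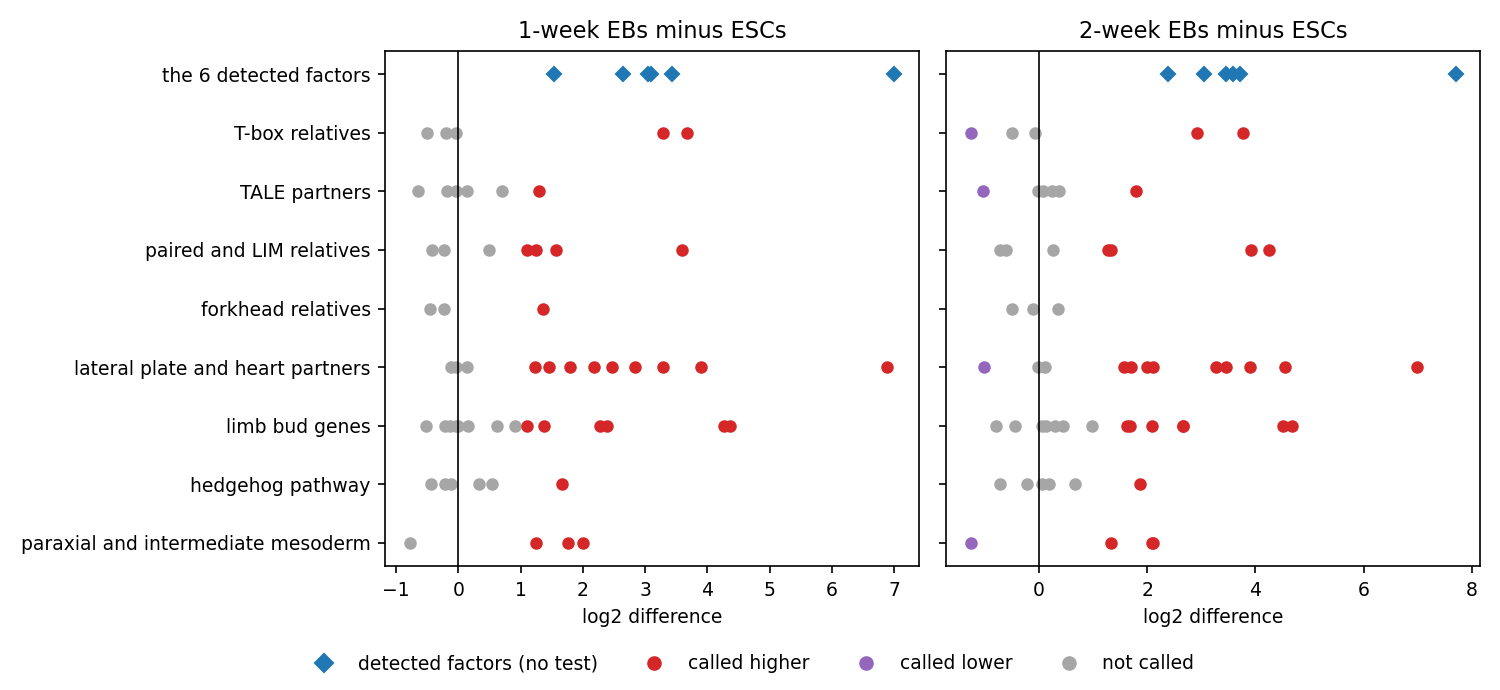
Log2 difference from ESCs (horizontal axis) of the 6 detected factors (blue diamonds, not tested) and of the detected genes of 8 lists (dots), in 1-week EBs (left) and 2-week EBs (right). Red dots were called higher, purple dots lower and grey dots not called. Many lateral plate, heart and limb bud genes lie right of 0, and forkhead and hedgehog genes lie mostly near 0.

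Markers of other cells that EBs can hold were read at the same time. In 2-week EBs against ESCs, 5 of 5 detected endoderm markers and 5 of 8 endothelium and blood markers were called higher. So were 4 of 6 neuron markers, 4 of 5 forebrain markers and 8 of 9 mesenchyme markers, against 8.27% of all genes. In the same order, 4, 5, 1, 3 and 4 of these markers were undetected on every ESC array. Such markers were tested only because EBs expressed them, so these counts describe the lists and were not tested. The summed intensity of the endoderm markers lay between 363 and 397 in ESCs, between 11167 and 12944 in 1-week EBs and between 13233 and 14681 in 2-week EBs. That of the endothelium and blood markers lay between 942 and 993, between 2585 and 3649 and between 2633 and 3146 in the same order. TAL1, GATA1 and GATA4 did not pass the filter. Markers of several cell types were thus higher on the same arrays as the factors, and which cells expressed the factors was not measured.

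The genes most like each factor over the 12 arrays were found by Pearson's r, given as a description with no p, since the gap between ESCs and EBs carries most of it. For PITX1 they were HAPLN1, POSTN and LRRC32 (r = 0.9996, 0.9993 and 0.9992), of which HAPLN1 and POSTN are matrix genes, and 152 genes exceeded 0.99. For TBX3 they were the collagen genes COL5A2 and COL3A1 and PGM5 (r = 0.998 each), with 138 genes above 0.99. For MEIS1 they were MYL4, SERPINA1 and HOXB5 (r = 0.998 each), with 109 above 0.99. For FOXF1 they were CD99L2, VTN and PRDM1 (r = 0.996, 0.996 and 0.995), with 44 above 0.99. TBX2 and ISL1 had fewer, 5 and 1. The closest to TBX2 were SLC2A10, COL15A1 and IGDCC4 (r = 0.993, 0.992 and 0.992), and the closest to ISL1 were SEC61A1, MBNL2 and AKAP4 (r = 0.991, 0.99 and 0.989). In the series matrix SEC61A1 followed ISL1 at only 0.423.

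Genes beside the 9 factors on their chromosomes, 2 protein-coding genes on each side in RefSeq order with the factors themselves left out, were also read. There were 32, of which 30 were named on the array and 16 were detected. Of these 2 were called higher in 2-week EBs than in ESCs and 0 lower, where 8.27% and 6.02% of all genes were. They were MACROH2A1, a histone variant gene beside PITX1, with a difference of 2.36 (SE 0.080, adjusted p = 1.18e-11, limma), and LHX5, a LIM homeobox gene near TBX5, which was undetected in ESCs. Both are named after their values were seen, and the other 2 MACROH2A1 probes differed by 2.79 and 2.23.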

How the data were processed

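Per the file headers, the deposited non-normalized table gave each probe a linear intensity on every array together with its detection p-value, which ranks the probe among negative controls in steps of 1 in 759. The series matrix, deposited by the authors as log2 values of the same arrays without centring of genes, served as an alternative only. The scanner software and the steps behind the series matrix are not given in the sources used here. The sources name no batch, and 0 per-sample columns were left unused.

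Intensities were corrected by normexp from the detection p-values with an offset of 16, quantile-normalized and put on the log2 scale (neqc, limma 3.58.1, R 4.3.3). Quantile normalization removes any shift common to most genes. Probes detected at p under 0.01 on at least 4 arrays were kept, 15921 of 48803. Symbols came from the platform annotation, with 27578 probes of 1 symbol, 13 of several and 21212 unnamed here. Of the first, 27541 matched GRCh38.p14 by Entrez ID and 0 were renamed. The probe brightest over all arrays stood for its gene, giving 10562 genes. lmFit and eBayes were fitted on all 12 arrays with 3 groups and no covariate, with two-sided tests and Benjamini-Hochberg adjustment. A call needed an adjusted p under 0.05 and a 2-fold difference. In bounds, the dimmest detected probe per array lay between 6.67 and 7.28. The fit was tested on simulated data. Deviations from the group means of same-numbered 1-week and ESC arrays correlated across genes in 4 of 4 pairs. These values were 0.138 to 0.245, all over 0.1. Other numbers within arrays 1 and 2 or within arrays 3 and 4 correlated likewise, at 0.121 to 0.251. Between array 1 or 2 and array 3 or 4 the values were -0.256 to -0.078. The values thus set arrays 1 and 2 apart from arrays 3 and 4. They do not show that equal numbers pair arrays. The main fit used no pairing, and the replicate block was an alternative only.

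The factors, gene lists, marker lists and motifs were chosen with earlier results of these data known. The text names all 9 factors. For each list it names the 2 called genes with the largest difference in 2-week EBs against ESCs and the called gene with the largest difference in the second week. For each detected factor it names the 3 genes of highest r. Other names are said to be chosen after their values were seen, or are marker or undetected genes of a list. Alternatives tried were median scaling, no background correction, the series matrix, no filter on dim probes, detection on all 4 arrays of a group, all kept probes, a replicate block, averaged array pairs, other probes and each array left out in turn. A looser detection threshold of 0.05 was added after seeing the data.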

Additional observations from a re-analysis of the deposited data

Results flagged for a closer look

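Of the 18 sets of 4 arrays, 6 detected factors in 3 groups, 2 held an array far from the other 3 by Dixon's test, where chance flags about 1 set in 20. TBX2 stood at 7.24 on the third 2-week array, against 7.66 to 7.69 on the others, a gap of 0.928 of the group's range. FOXF1 stood at 5.02 on the third ESC array, against 5.45 to 5.46 on the others, a gap of 0.977 of the range, and it was undetected on all 4.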

How the results depend on the processing

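Differences of the 6 factors from ESCs kept their direction under all alternatives. The set was selected for higher EB signal, and 5 of the 6 passed the filter only through EB arrays. This direction was thus set beforehand and gives no support. The count of genes called between 1-week EBs and ESCs, 967, was 640 without background correction and 639 in the series matrix, and the count between 2-week and 1-week EBs, 146, was 73 and 81. The 4 listed family, limb and lateral plate genes called in the second week were 2 and 2 under these settings. The 4 factors with an adjusted p under 0.05 in the second week were 2 in the series matrix and 2 with array pairs averaged. For single factors in the second week, TBX2 gave 0.42 and TBX3 0.06 in the series matrix, TBX3 gave 0.02 by its other probe, and ISL1 gave 0.64 without the second 2-week array. In the series matrix the second 2-week array departed from the values used here across all probes, at r = 0.935. The cause of these shifts was not tested. With arrays left out in turn, calls ranged from 948 to 1021 at 1 week, from 1457 to 1574 at 2 weeks and from 142 to 161 in the second week, the factors with an adjusted p under 0.05 from 4 to 5, and the listed genes called from 26 to 27, from 28 to 31 and from 3 to 5. Among named genes, LHX1, LMO2, TBX1, TCF15, HEY2 and FOXD1 were not called without background correction and in the series matrix. Nor was PKNOX2 at 1 week under these settings, or TGIF1 and GAS1 in the series matrix. Median scaling moved the median of all genes by 0.13 at 1 week and -0.12 in the second week, so that 78.1% of calls at 1 week were higher, against 66.5% after quantile normalization, and 44.7% in the second week, against 63.7%. MEIS2 passes the added detection threshold of 0.05 by probe ILMN_2398077, but only with its 2-week arrays counted. That probe was higher by 0.72 in 2-week than in 1-week EBs, given as a description with no test. The other MEIS2 probes, ILMN_1664416 and ILMN_1792995, differed by -0.003 and -0.041. In the 2-week comparisons, correlations of same-numbered deviations ran from -0.043 to 0.064 with ESCs and from -0.086 to 0.135 with 1-week EBs. Over all 3 comparisons 5 of 12 arrays correlated best with their own number. With the replicate block the counts were 967, 1509 and 146, the same genes in each, and 4 factors passed in the second week. Detection limits TBX2, MEIS2, TBX5 and TBX20, whose levels lay near or below background.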
